A study of Drosophila melanogaster with 6 samples.

Results

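The glutathione S-transferases of adult Drosophila flight muscle were examined as a gene family, whose members were taken by their symbol and by no measured value: every gene named Gst followed by the class letter D, E, O, S, T or Z and a number. This gave 35 genes of the 17494 listed, namely 11 delta (D), 14 epsilon (E), 3 omega (O), 1 sigma (S), 4 theta (T) and 2 zeta (Z) genes. Of these, 27 had enough counts to be tested, and 11 were significantly higher upon M1BP RNAi while 0 were lower, where 11.0% of all tested genes were higher and 6.58% lower. Among them GstS1 was by far the most abundant in WT flight muscle and rose a further 2.60-fold, and GstD5, nearly silent in WT, rose 96.1-fold. GstD2 and GstD5 passed the count filter through their M1BP RNAi samples alone. The family was chosen with earlier results of these data known, so these counts describe it and do not test it.

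Cytosolic glutathione S-transferases join the tripeptide glutathione to electrophilic compounds, among them insecticides, plant toxins and the aldehydes left when lipids are oxidised, and many also reduce organic peroxides. The conjugates are then exported by ABC transporters of the MRP type. In insects the delta and epsilon classes have expanded by tandem duplication and are best known for detoxification and insecticide resistance. Several of their genes respond to oxidative stress through the Nrf2 homologue CncC, encoded by cnc, which Keap1 holds in check and which binds DNA with the small Maf protein Maf-S. The sigma, omega, theta and zeta classes are shared with vertebrates. GstS1 stands apart in this tissue, since it is a protein of the flight muscle thin filament, where it is attached to troponin H, a heavy tropomyosin, and it also conjugates the lipid peroxidation product 4-hydroxynonenal.

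Each sample was poly(A) RNA of indirect flight muscles dissected by hand from 30 pooled females, aged 2 days. The 3 Mef2>WT samples came from Mef2-GAL4 crossed to w1888, as the labels spell it, and the 3 Mef2>M1BP RNAi samples from Mef2-GAL4 crossed to a UAS hairpin against M1BP (line #1, a KK line). M1BP is a zinc finger protein that binds the Motif 1 element of core promoters. Both groups carry Mef2-GAL4, which is active in muscles and their precursors from development onwards, so adult levels follow a knockdown that began earlier, with 1 hairpin line. The study states that this driver can also act in some neurons and that Mef2 is expressed in the fat body. With a neural or a fat body driver it saw no sarcomere or mitochondrial phenotype in flight muscle. The labels do not say whether the samples of a group came from separate crosses, so the p-values measure only the spread between these samples. M1BP itself was at 148.9, 123.4 and 119.1 normalized counts in WT and at 49.5, 50.1 and 52.0 upon M1BP RNAi (log2 fold change −1.36, SE 0.16, edgeR adjusted p = 3.36e-04).

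The libraries held between 37908823 and 64871987 counts. Transcripts of mtDNA took 71.5 to 76.3% of them in WT and 54.0 to 59.4% upon M1BP RNAi, which left 10700748 to 18518305 nuclear counts per WT sample and 17284968 to 27158157 per M1BP RNAi sample. A normalized count is a count over the effective size of its library (the total times a TMM factor), scaled to the mean of the 6 samples. A gene was called at an adjusted p of at most 0.001 with a change of at least 1.5-fold, the thresholds of the study, where the adjusted p comes from the quasi-likelihood test of edgeR, adjusted by Benjamini-Hochberg over the 9276 genes tested. By this rule 1016 genes were higher upon M1BP RNAi, 610 were lower, and 1626 (17.5% of those tested) were called in either direction. Scaling by total library size alone, mtDNA included, moved the median log2 fold change of all genes from 0.02 to 0.77 and gave 2576 higher and 137 lower genes. M1BP was then at −0.61 (edgeR adjusted p = 0.0136, not called), or −1.38 relative to that median. Its call was also lost in each of the 6 fits that left out 1 sample, at log2 fold changes of −1.42 to −1.24 and adjusted p of 1.03e-03 to 2.28e-03. Values for the transferases under total library size are given relative to its median unless stated otherwise.

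The 35 genes lie at 12 places on release 6 of the genome (dm6). All 11 delta genes sit within 20.8 kb of chromosome 3R, from 12364776 to 12385624, with GstD10, GstD9 and GstD1 on the minus strand and the other 8 on the plus strand. The largest epsilon cluster holds 10 genes in 13.2 kb of chromosome 2R, from 18396638 to 18409835, where GstE10 is on the minus strand and GstE1 to GstE9 follow on the plus strand. GstE11 (2R, 18503608 to 18505025), GstE12 (2R, 24766718 to 24768172), GstE13 (2R, 9122125 to 9123309) and GstE14 (2R, 13239729 to 13241013) each stand alone. GstS1 spans 17093246 to 17099501 on the minus strand of 2R, with 4 annotated transcripts and 2275 exon bases. All 35 genes are annotated as protein-coding, and none shares exon bases with another gene on its own strand.

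Among the 27 tested transferases, 23 had a fitted log2 fold change above 0 and 4 below. Their median log2 fold change was 1.13, against 0.02 over all tested genes, and the values ran from −1.03 for GstE2 to 6.61 for GstD5. The 11 called higher were GstD1, GstD2, GstD5, GstD9, GstE1, GstE11, GstO3, GstS1, GstT1, GstT2 and GstZ1, which is 11 of 27 where 11.0% of all tested genes were called higher. Every class had at least 1 called member, with 4 of 6 tested genes in delta, 2 of 11 in epsilon, 1 of 3 in omega, the single sigma gene, 2 of 4 in theta and 1 of 2 in zeta. At an adjusted p of at most 0.05, again with a change of at least 1.5-fold, 16 transferases were higher and 1, GstE2, was lower, where 25.4% of all tested genes were higher and 21.8% lower. In 18 of the 27 every M1BP RNAi sample lay above every WT sample and in 1 every M1BP RNAi sample lay below, a separation that 33.1% and 31.1% of all tested genes showed. These counts depend on the count filter, which a gene can pass through 1 group alone. GstD2 and GstD5, among others, passed it only through the M1BP RNAi samples. Among the untested genes, GstE14 was lower in every M1BP RNAi sample, and GstD6, GstD7 and GstD8 were higher in every one. GstD4, GstD11, GstE4 and GstE10 overlapped. All of these rest on low counts, and the share of all untested genes that separate was not computed, so no direction is read from them. The plot of fold changes shows the called genes spread over all classes and the widest range within delta.

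**Figure D1:**
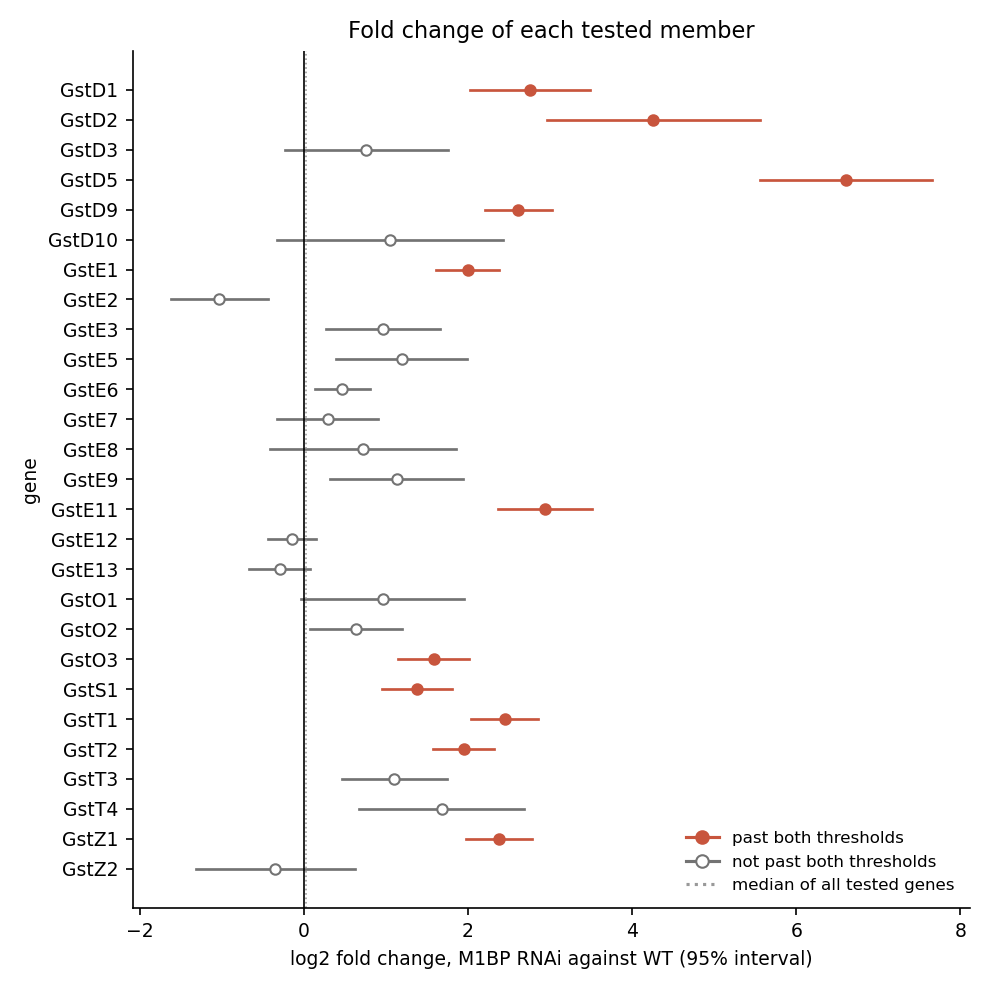
Fold change of the 27 tested transferase genes. Each point is the log2 fold change of M1BP RNAi against WT from edgeR and each bar its 95% interval. Filled points mark the 11 genes called higher, open points the other 16, and the dotted line the median of all 9276 tested genes at 0.02. GstD5 lies farthest to the right at 6.61 and GstE2 farthest to the left at −1.03.

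The delta class held the largest changes. GstD1, a delta enzyme able to degrade the insecticide DDT, was at 1359, 1209 and 1620 normalized counts in WT samples 1 to 3 and at 14175, 6116 and 8062 in M1BP RNAi samples 1 to 3. The groups were far apart, and M1BP RNAi sample 1 stood above the other 2 of its group. GstD1 had a log2 fold change of 2.76 (SE 0.32, edgeR adjusted p = 2.97e-04), a 6.77-fold rise of the mean. GstD1 passed the threshold in 3 of the 6 fits that left out 1 sample, and the adjusted p was 2.82e-03 without WT sample 1, 2.09e-03 without WT sample 2 and 1.31e-03 without WT sample 3.

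GstD5 had 6, 8 and 8 counts in the WT libraries and 473, 1035 and 1981 counts in the M1BP RNAi libraries. After normalization the WT values were 10.3, 10.6 and 7.57 and those upon M1BP RNAi 487.5, 1036 and 1211. Even M1BP RNAi sample 1, the lowest of its group, lay far above all WT samples. The log2 fold change was 6.61 (SE 0.45, edgeR adjusted p = 2.89e-05) and the ratio of means 96.1-fold, which placed GstD5 at position 19 of the 9276 tested genes by log2 fold change. The call held in all 6 fits that left out 1 sample.

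GstD2, the first plus-strand gene of the cluster, had 0, 2 and 5 counts in the WT libraries and 43, 79 and 78 in the M1BP RNAi libraries. The groups did not overlap, but the WT side rests on 7 counts in all. The log2 fold change was 4.26 (SE 0.56, edgeR adjusted p = 5.54e-04), and its size depends on how a fit treats such low counts. GstD2 lost its call in each of the 6 fits with 1 sample left out, at adjusted p of 1.48e-03, 2.90e-03 and 1.39e-03 without WT samples 1 to 3 and of 1.38e-03, 2.22e-03 and 1.91e-03 without M1BP RNAi samples 1 to 3. Without WT sample 3, which held 5 of the 7 counts, its log2 fold change was 5.15.

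GstD9, the neighbour of GstD1 on the minus strand, was at 159, 167 and 169 normalized counts in WT and at 781, 1186 and 1075 upon M1BP RNAi. WT samples were within a few percent of each other, and every M1BP RNAi sample was several times higher. Its log2 fold change was 2.62 (SE 0.17, edgeR adjusted p = 2.67e-05), and it was called in all 6 fits that left out 1 sample.

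The remaining delta genes were either not called or too low for the test. GstD3, which lies between GstD2 and GstD4, was at 77.0 ± 14.0 normalized counts in WT (SD, n = 3) and at 133 ± 86.9 upon M1BP RNAi (SD, n = 3), where sample 1 reached 233 and samples 2 and 3 stayed among the WT values. GstD10 was at 13.7 ± 13.7 and 28.7 ± 7.49 (SD, n = 3 each), with overlapping groups. Neither was called, at log2 fold changes of 0.76 (95% interval −0.23 to 1.75) and 1.05 (−0.33 to 2.43). The value of GstD3 was 0.10 without M1BP RNAi sample 1, and that of GstD10 was 2.15 without WT sample 2, the highest of its WT samples, also uncalled.

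The other 5 delta genes had too few counts for the test. GstD8 had 0 counts in all 3 WT libraries and 9, 6 and 37 in the M1BP RNAi libraries. The pooled M1BP RNAi level was 11.5-fold above a floor of 3 counts over the WT group. Most of these counts came from M1BP RNAi sample 3, so the single samples 1 and 2 lay closer to that floor. GstD7 went from 0, 2 and 0 counts to 5, 5 and 8, and GstD6 from 1, 4 and 0 to 7, 7 and 11. GstD4, the gene directly before GstD5, had 0, 1 and 0 counts in the WT libraries and 2, 1 and 11 in the M1BP RNAi libraries, and GstD11 never exceeded 1 count. Hence GstD4 and GstD6, whose ends lie 908 and 555 bases from GstD5 in the plus-strand row, both stayed at or below 11 counts in every library, whereas GstD5 itself reached 1981.

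The map of the delta and epsilon clusters shows this gene by gene. Levels of different genes are compared there per exon length, as TPM (counts per exon length, scaled to the same total over nuclear genes in each sample).

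**Figure D2:**
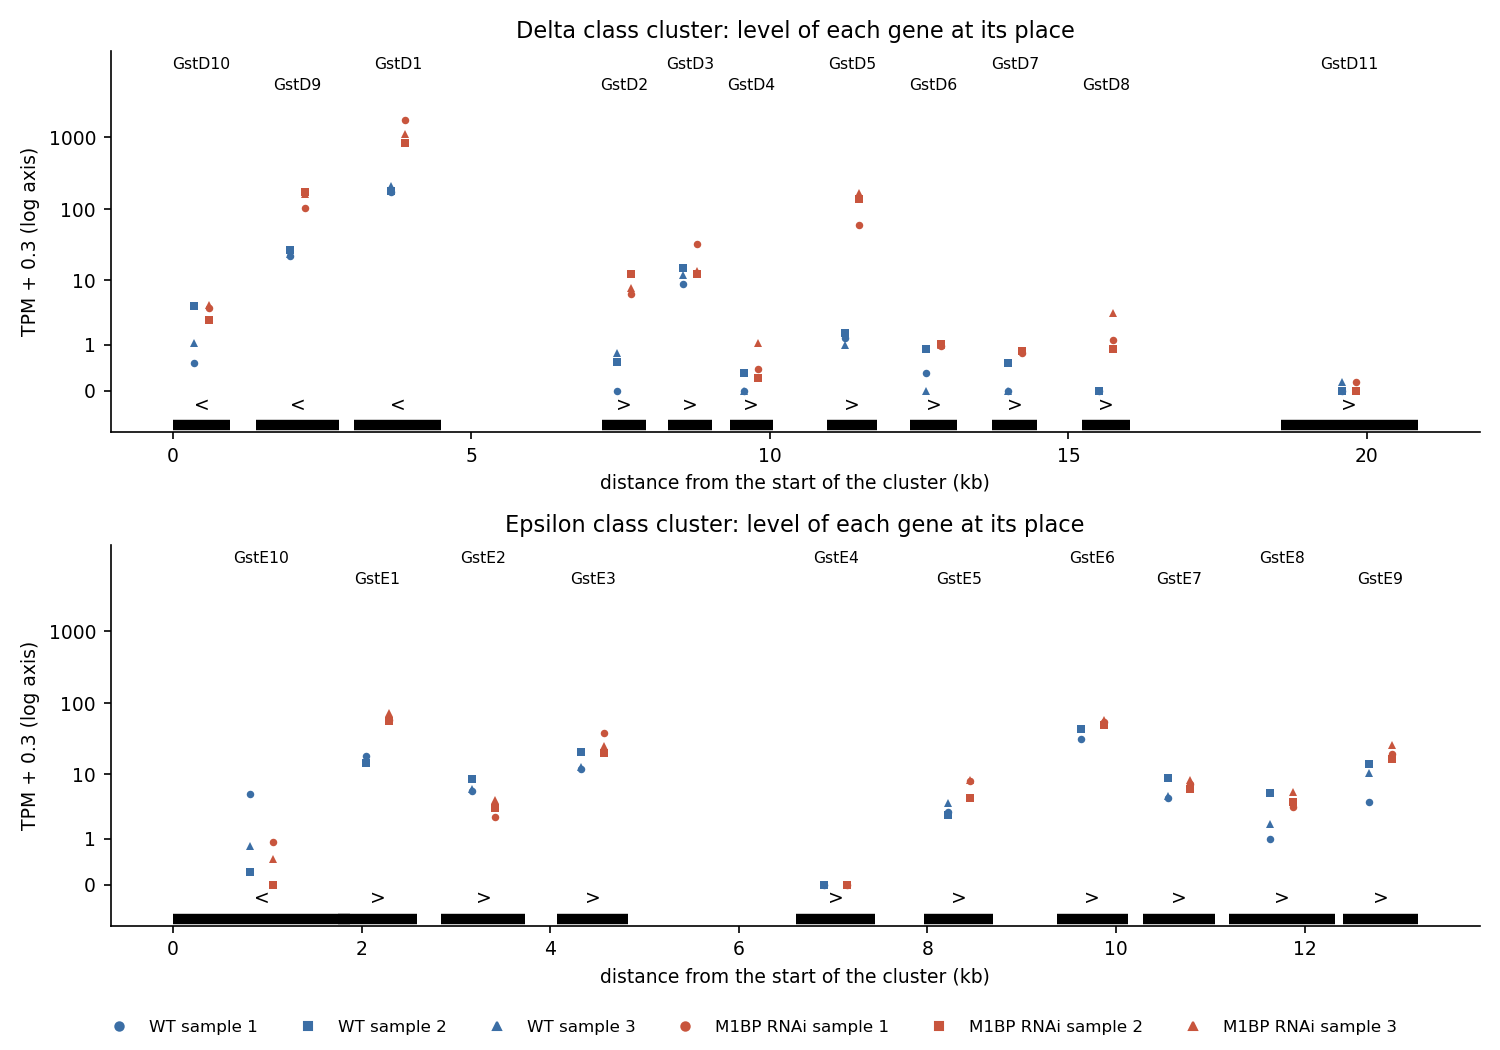
Levels along the 2 tandem clusters. The horizontal axis is the distance from the start of the cluster in kb, black bars are the genes with > for the plus and < for the minus strand, and points are TPM + 0.3 in each sample on a log axis. In the delta cluster GstD1, GstD2, GstD5 and GstD9 separate clearly between groups while GstD4, GstD6 and GstD7 stay at or below 1.09 TPM in every sample, with GstD6 and GstD7 higher in all M1BP RNAi samples. GstD8 is at 0 in WT and at 0.85 to 3.28 TPM upon M1BP RNAi. In the epsilon cluster GstE1 shows the widest separation and GstE4 is at 0 in all 6 samples.

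In the epsilon class the 2 called genes were GstE1, within the cluster, and GstE11, outside it. GstE1, the first plus-strand gene of the cluster, was at 139, 96.9 and 114 normalized counts in WT and at 460, 413 and 518 upon M1BP RNAi. GstE11 was at 44.5, 31.9 and 50.1 in WT and at 240, 364.5 and 373 upon M1BP RNAi. In both genes all M1BP RNAi samples were at least several times above the WT samples. The log2 fold changes were 2.00 for GstE1 (SE 0.16, edgeR adjusted p = 6.63e-05) and 2.94 for GstE11 (SE 0.25, edgeR adjusted p = 7.13e-05), and both were called in all 6 fits that left out 1 sample. GstE1 shares 20 exon bases with GstE10 on the opposite strand, a gene with at most 32 counts in any library.

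The most abundant epsilon genes in WT were not called. GstE13 was at 1448, 1193 and 1088 normalized counts in WT and at 871, 1158 and 1011 upon M1BP RNAi, with overlapping groups (log2 fold change −0.29, 95% interval −0.66 to 0.07, edgeR adjusted p = 0.148). GstE12 was at 1286 ± 143 in WT and at 1166 ± 66.5 after knockdown (SD, n = 3 each), with a log2 fold change of −0.14 (95% interval −0.43 to 0.15). Both intervals leave out a 1.5-fold rise and a 2-fold fall. Under total library size the signs of both turned, to 0.46 for GstE13 and 0.60 for GstE12, and relative to that scaling's median they were −0.31 and −0.17.

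Next to GstE1, GstE2 was the only transferase with all M1BP RNAi samples below WT among those tested. It was at 47.9, 61.1 and 49.2 normalized counts in WT and at 19.6, 25.0 and 31.8 upon M1BP RNAi. The log2 fold change of −1.03 (SE 0.25, edgeR adjusted p = 0.0103) did not pass the threshold. The genes GstE1 and GstE2 are 262 bases apart on the same strand, and their log2 fold changes had opposite signs. The other tested epsilon genes, GstE3 and GstE5 to GstE9, had log2 fold changes from 0.29 for GstE7 to 1.19 for GstE5, none of them called. Without WT sample 2 the value of GstE8 moved from 0.72 to 1.52, still uncalled. GstE4 had 0 counts in all 6 libraries, which allows up to 2.80e-05% of the nuclear counts in the shallowest sample. GstE14, known as noppera-bo and required for ecdysone synthesis in the prothoracic gland, had 9, 17 and 26 counts in the WT libraries and 6, 7 and 4 in the M1BP RNAi libraries, also without overlap but too few for the test.

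**Figure D3:**
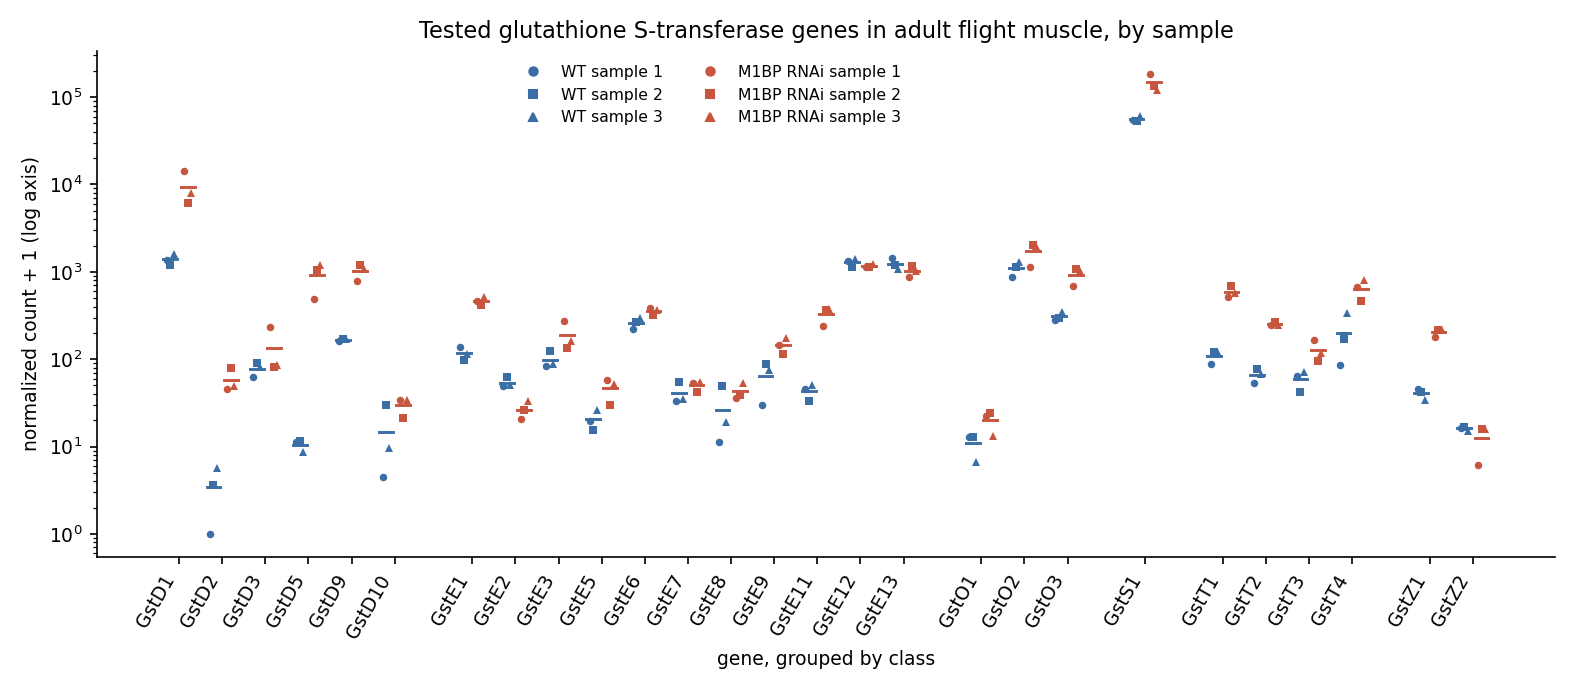
Normalized counts + 1 of the 27 tested transferases in each sample, on a log axis, grouped by class. Blue symbols are WT samples 1 to 3, red symbols M1BP RNAi samples 1 to 3, and short lines the group means. GstS1 lies above every other gene in both groups, and in GstE12 and GstE13 the groups overlap.

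GstS1 (FBgn0010226) dominated the family. In WT it took 32285, 40541 and 64771 counts, or 0.302% (95% exact Clopper-Pearson interval 0.298 to 0.305), 0.325% (0.322 to 0.328) and 0.350% (0.347 to 0.353) of the nuclear counts in samples 1 to 3. These intervals cover counting error only. Upon M1BP RNAi the shares were 1.03% (1.03 to 1.04), 0.783% (0.779 to 0.788) and 0.730% (0.727 to 0.734). The lowest M1BP RNAi share was thus more than double the highest WT share.

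In normalized counts GstS1 was at 55260, 53812 and 61247 in WT and at 185331, 135597 and 121240 upon M1BP RNAi. Sample 1 was the highest of the M1BP RNAi group, and the groups did not overlap. The log2 fold change was 1.38 (SE 0.18, edgeR adjusted p = 5.91e-04), and 1.35 relative to the median under total library size. Leaving out M1BP RNAi sample 1 kept the call at a log2 fold change of 1.18 (edgeR adjusted p = 6.12e-04). The call was lost without any of the other 5 samples, at adjusted p of 4.30e-03, 3.61e-03 and 2.21e-03 without WT samples 1 to 3 and of 2.42e-03 and 1.20e-03 without M1BP RNAi samples 2 and 3. With DESeq2, whose calls reached further down over all genes as well, the adjusted p over all 6 samples was 5.30e-13.

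**Figure D4:**
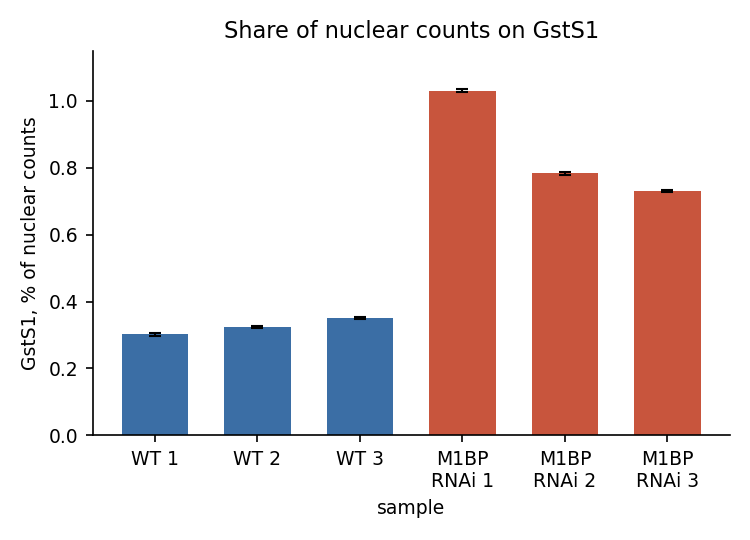
Share of the nuclear counts that fell on GstS1 in each sample, in percent. Bars are single samples and error lines their 95% exact binomial intervals, which cover counting error only. The WT samples lie between 0.302 and 0.350% and the M1BP RNAi samples between 0.730 and 1.03%.

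Per length, GstS1 was at 2838 ± 198.5 TPM in WT and at 7188 ± 1187 TPM upon M1BP RNAi (SD, n = 3 each). By this level it was 69th of 17457 nuclear genes in WT (74th, 60th and 65th in the single samples) and 16th upon M1BP RNAi (16th, 18th and 21st). For scale, TpnC4, the flight muscle troponin C, was at 17617 ± 2656 TPM in WT (SD, n = 3). Of the family's TPM, GstS1 held 79.4 ± 0.17% in WT samples and 74.9 ± 2.61% in knockdown samples (SD, n = 3 each). Every knockdown share (71.92 to 76.77%) lay below every WT share (79.25 to 79.59%). In normalized counts, not divided by length, the GstS1 shares were 89.2 ± 0.12% and 87.9 ± 1.59% (SD, n = 3 each).

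The order of the other members by TPM was not the same in both groups. In WT GstS1 was followed by GstD1 (188 ± 20.6), GstE13 (133 ± 17.9), GstE12 (104 ± 5.58), GstO2 (72.3 ± 15.6) and GstO3 (39.9 ± 4.84), and no neighbours in this row overlapped (SD, n = 3 each). GstO3 overlapped with the next gene, GstE6, at 39.3 ± 6.95 TPM, and from GstD9 (24.0 ± 2.39) downwards every gene overlapped with the next. Upon M1BP RNAi GstD1 was second at 1236 ± 477 TPM, and GstD9 (145 ± 36.3), GstD5 (123.5 ± 56.2), GstO3 (119 ± 31.6), GstO2 (111 ± 37.0), GstE13 (107 ± 19.6) and GstE12 (93.5 ± 10.1) came next, each overlapping with its neighbour within this row (SD, n = 3 each). GstD5 moved from 26th to 4th within the family. The distance from GstS1 to GstD1 was 15.1-fold in WT and 5.82-fold upon M1BP RNAi.

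The omega genes encode enzymes with a cysteine at the active site, and together with their neighbour sepia they act in thiol transfer and pteridine metabolism. GstO3 was at 282, 296 and 349 normalized counts in WT and at 695, 1075 and 1017 upon M1BP RNAi. Even the lowest M1BP RNAi sample was well above WT, and the log2 fold change was 1.58 (SE 0.19, edgeR adjusted p = 3.39e-04). The call was lost without WT sample 1 (adjusted p = 2.28e-03), WT sample 2 (1.88e-03), M1BP RNAi sample 2 (1.65e-03) or M1BP RNAi sample 3 (1.64e-03). GstO2, the most abundant omega gene in WT, was at 881.5, 1140 and 1288 and at 1146, 2006 and 1997, so that M1BP RNAi sample 1 fell within the WT range (log2 fold change 0.64, SE 0.24, edgeR adjusted p = 0.0547). GstO1 was low, at 9.87 ± 3.63 and 19.0 ± 5.88 normalized counts (SD, n = 3 each), and was not called. The eye pigment gene sepia (se), which lies between GstO3 and GstO2, had at most 2 counts in any library.

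In the theta class all 4 genes were higher in every M1BP RNAi sample than in any WT sample, as were 33.1% of all tested genes. GstT1 was at 87.3, 121 and 115.4 normalized counts in WT and at 509, 694 and 578 upon M1BP RNAi. The groups were separated by more than 4-fold, with a log2 fold change of 2.45 (SE 0.18, edgeR adjusted p = 3.60e-05). GstT2 starts 107 bases after the end of GstT1 on the same strand of 2R (9605988 to 9608350 for the pair). It was at 53.1, 75.7 and 66.2 in WT and at 247, 268 and 244 upon M1BP RNAi, with a log2 fold change of 1.95 (SE 0.16, edgeR adjusted p = 6.61e-05). Both calls held in all 6 fits that left out 1 sample. Of the exon bases of GstT2, 223 also lie in exons of CG12926 on the opposite strand, and whether the counting used strand is not given in the sources used here, so reads of these genes there cannot be told apart with certainty.

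GstT4, on chromosome X (13404749 to 13409323) and the most abundant theta gene in WT by TPM, varied most. It was at 83.9, 171 and 334 normalized counts in WT and at 661, 467 and 798 upon M1BP RNAi. The WT samples alone spread widely, and the log2 fold change of 1.68 (SE 0.43, edgeR adjusted p = 0.0122) was not called, although DESeq2 did call it. Without WT sample 3, the highest of the WT samples, it was 2.32 (edgeR adjusted p = 2.05e-03), also not called. GstT3, also on X (20467455 to 20469796), had a log2 fold change of 1.10 (SE 0.28, edgeR adjusted p = 0.0108) and was not called.

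The zeta genes are neighbours on the minus strand of 3R (9455517 to 9460652), 268 bases apart, and belong to the class of maleylacetoacetate isomerase, an enzyme of tyrosine breakdown. GstZ1 was at 44.5, 41.2 and 33.1 normalized counts in WT and at 180, 213 and 216 upon M1BP RNAi. All M1BP RNAi samples lay above 4 times the WT samples, with a log2 fold change of 2.38 (SE 0.17, edgeR adjusted p = 4.11e-05), and the call held in all 6 fits that left out 1 sample. GstZ2 was at 15.2 ± 0.90 in WT and at 11.6 ± 5.60 upon M1BP RNAi (SD, n = 3 each), with overlapping groups and a log2 fold change of −0.34 (95% interval −1.32 to 0.63). Under total library size its log2 fold change was 0.38, and −0.39 relative to that scaling's median.

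Summed over all members, every class was higher in each M1BP RNAi sample than in any WT sample, by amounts that differed widely. The delta sum was 1595, 1517 and 1891 normalized counts in the WT samples and 15779, 8536 and 10554 in the M1BP RNAi samples, a ratio of means of 6.97. The theta sum went from 427 ± 150 to 1615 ± 111 and the zeta sum from 54.8 ± 6.63 to 215 ± 25.5 (SD, n = 3 each), ratios of 3.78 and 3.93. The sum over GstS1 alone gave 2.60, and the omega sum 1.87. The epsilon sum moved least, from 3463, 3129 and 3274 to 3681, 3774 and 4042, a ratio of 1.17. Most of it in WT came from GstE12 and GstE13, which were not called, at means of 1286 and 1243. Relative to the family's TPM, the delta class went from 6.37 ± 0.30% to 15.95 ± 2.38% and the epsilon class from 9.68 ± 0.75% to 4.55 ± 0.99% (SD, n = 3 each). In every WT sample the epsilon sum in TPM was above the delta sum, and in every M1BP RNAi sample it was below. This rested on GstD1, without which the delta sum was below the epsilon sum in all 6 samples. The delta share without GstD1 went from 1.11 ± 0.18% to 3.30 ± 1.24% (SD, n = 3 each). Without GstS1 the family sum went from 6860 ± 502 to 19949 ± 2979 normalized counts (SD, n = 3 each), a ratio of 2.91. These sums are descriptions and were not tested.

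**Figure D5:**
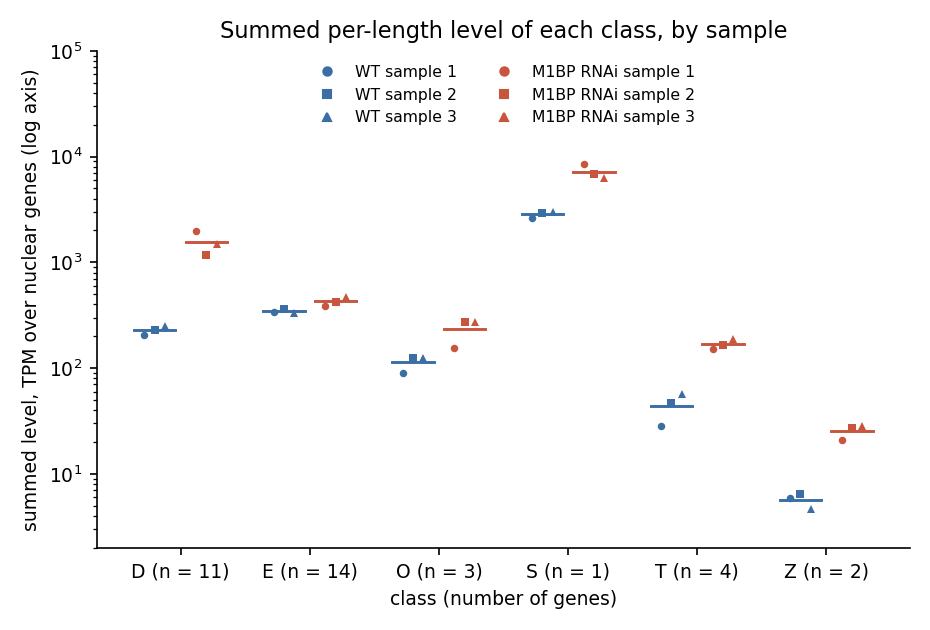
Summed TPM of each class in each sample, on a log axis, with the number of genes in the class. Blue symbols are WT samples, red symbols M1BP RNAi samples and lines the group means. The delta class moves from below epsilon in WT to above it upon M1BP RNAi, and the epsilon class changes least.

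The called genes did not share 1 order among the M1BP RNAi samples. M1BP RNAi sample 1 was the highest of its group for GstD1 and GstS1 and the lowest for 7 of the other 9, namely GstD2, GstD5, GstD9, GstE11, GstO3, GstT1 and GstZ1. Without that sample 10 of the 11 genes were called, all but GstD2. Over the 6 fits that each left out 1 sample, between 7 and 10 of the 11 were called, and GstD5, GstD9, GstE1, GstE11, GstT1, GstT2 and GstZ1 were called in every one. The fewest, 7, came without WT sample 1 and also without WT sample 2.

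The genes around the transferases in glutathione metabolism, its regulation and detoxification were looked up from a list of 19 names, of which 17 were found and 15 tested. The 2 names not found, CG6835 and CG32495, may be older names of Gss1 and Gss2, which were found. Of the 15 tested, 2 were called higher, 0 lower and 13 were not called, with a median log2 fold change of 0.12. That is near the background, where 11.0% of all tested genes were called higher. MRP, the transporter that exports glutathione conjugates, was at 1629, 1870 and 1652 normalized counts in WT and at 6743, 6922 and 6527 upon M1BP RNAi. Its replicates lay close together in both groups (log2 fold change 1.97, SE 0.12, edgeR adjusted p = 1.77e-05). The cytochrome P450 gene Cyp6w1 was at 159, 176.5 and 179 in WT and at 384.5, 420 and 383 upon M1BP RNAi (log2 fold change 1.20, SE 0.11, edgeR adjusted p = 1.24e-04), and lost its call without M1BP RNAi sample 2 (adjusted p = 1.03e-03).

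Glutathione synthesis and the CncC regulators were not called. The log2 fold change of Gclc, the catalytic subunit of glutamate-cysteine ligase, was 0.24 (95% interval −0.05 to 0.54) and that of its modifier subunit Gclm 0.36 (0.04 to 0.67). Gss2, also on the synthesis list, was low in unique counts, at 10.7 ± 2.88 and 18.2 ± 4.52 normalized counts (SD, n = 3 each). Gss1 lies close to it on chromosome X, and both have 2838 exon bases. Reads matching both genes equally would be left out of unique counts, so the level of Gss2 may be understated. The log2 fold change of Gss2 was 0.81 (0.005 to 1.61). For cnc it was 0.12 (−0.13 to 0.36), for Keap1 0.89 (0.16 to 1.61) and for maf-S −0.57 (−0.88 to −0.25). Of the 5 detoxification genes listed as CncC targets only Cyp6w1 was called. Cyp6a2, a cytochrome P450 gene, had a log2 fold change of −0.13 (−0.58 to 0.31), and Jheh1, a juvenile hormone epoxide hydrolase gene, −0.77 (−1.15 to −0.38), which DESeq2 called lower.

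In dissected tissue a change in a transcript can follow the cells present or the RNA per cell, and these cannot be told apart here. All 8 flight muscle markers were detected, and their summed level was 39286 to 43801 CPM of nuclear counts in WT and 71999 to 95066 upon M1BP RNAi, with 2 of 8 called higher, Act88F and Mhc (11.0% of all tested genes). Without these 2 the sum was 26360 to 28921 in WT and 30937 to 35267 upon M1BP RNAi, and TpnC4 and Mlp84B had log2 fold changes of −0.23 and −0.21. GstS1, itself a flight muscle protein, was highest in M1BP RNAi sample 1, as were both sums. Fat body markers, where detoxification genes are also expressed, summed to 3142 to 4980 in WT and 1706 to 2248 upon M1BP RNAi (1 of 6 tested called higher, 0 lower). They did not move together. FASN1, the called gene, had a log2 fold change of 1.41 and Lsp2, a low gene, 3.42, uncalled. Yp1, Yp2, Yp3 and apolpp were at −1.94 to −1.28, also uncalled. The sums were 446 to 496 and 305 to 426 for haemocytes, 162 to 240 and 83.3 to 112 for neurons, and 35.6 to 40.6 and 16.0 to 28.2 for trachea. Gut and Malpighian tubule markers overlapped between groups (406 to 1326 and 709.5 to 1773). The trachea marker trh (1 of 4 tested) and the gut and tubule marker Irk2 (1 of 6) were called lower, as were 6.58% of all tested genes. Ovary markers were at 0.22 to 0.48 in WT and at 0 to 9.46 upon M1BP RNAi, the highest in sample 1, which is also the sample with the highest GstD1, GstD3 and GstS1. The part of these markers in the transferase levels was not tested.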

How the data were processed

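RNA-seq of polyadenylated RNA was performed by the authors on 3 Mef2>WT and 3 Mef2>M1BP RNAi flight muscle samples with a stranded kit. The authors deposited raw counts of uniquely mapped reads over the exons of each gene on dm6. The submitters' processing notes name Subread, featureCounts and bcl2fastq 2.17.1.14. The aligner's settings and the strand setting are not given in the sources used here. Reads shared by near-identical copies are left out of unique counts, which may lower tandem copies of the delta and epsilon classes. From a second table deposited by the authors, which holds their DESeq2 comparison, only identifiers and symbols were used, as other information. Its fold changes, p-values and mean were not used.

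Counts were tested with edgeR 4.0.16 in R 4.3.3 (filterByExpr, TMM, glmQLFit, glmQLFTest) over 9276 genes, with Benjamini-Hochberg adjustment. SE were derived from F. Levels per length (TPM) were computed over nuclear genes. Total counts per sample ran from 37908823 to 64871987, and 3 counts correspond to 1.1e-05 to 2.8e-05% of a sample's nuclear counts. Positions matched a release 6 annotation for all 35 genes. Python 3.11.15, pandas 2.3.3, scipy 1.17.1 and matplotlib 3.10.9 were used. Tests were tried on simulated counts first.

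The family, and with it its members, and the lists were chosen with earlier results of these data known, although the rule for members uses symbols only. Genes named in full were those called, GstS1, GstD1, GstD2, GstD5, GstE1 and the gene of each class with the highest WT level per length, together with called pathway genes. The alternatives were DESeq2 1.42.0, RLE, total library size, TMM without mtDNA, other filters and thresholds, a replicate block and leaving out each sample. The labels share replicate numbers between groups, but samples of 1 number are different flies.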

Additional observations from a re-analysis of the deposited data

How the results depend on the processing

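Of 442 alternative values for 30 single genes, 403 kept direction and side of the threshold, 29 fell short of it, 7 newly passed it and 3 changed sign, all under total library size and none called there: GstE12 to 0.60, GstE13 to 0.46 and GstZ2 to 0.38. These 3 values are not relative to that scaling's median, and relative to it all 3 stayed below 0. The 29 that fell short all belonged to called genes, namely M1BP, GstD2, GstS1, GstO3, GstD1 and Cyp6w1. The 403 include genes uncalled throughout, and settings that changed only a threshold could not change a direction. The count of transferases called higher was 11 with RLE, total library size, TMM without mtDNA, no filter and no minimum fold, 13 with DESeq2 (GstD8 and GstT4 added), 10 with the stricter filter (GstD2 not tested), and 7 to 10 with 1 sample left out. Fewer samples enter the latter fits. With the replicate block it was 9, with GstD2 and GstS1 lost, and M1BP lost its call as well (adjusted p = 2.05e-03 from edgeR). Deviations of samples with the same number correlated at 0.05, 0.18 and −0.02, and those of samples with different numbers at −0.34 to 0.28. With so few samples these values cannot show whether samples of 1 number were handled together. At an adjusted p of at most 0.05, GST genes called lower went from 0 to 1 and pathway genes called from 2 to 4 (Keap1 added, higher, and Jheh1, lower). The latter were 3 with DESeq2 (Jheh1 added, lower) and 1 to 2 with 1 sample left out. Over all genes, 1626 were called, against 2939 with DESeq2, 2713 with total library size, 790 with the block and 602 to 1278 with 1 sample left out.

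Under total library size, without taking off its median, the log2 ratios of the class sums were 3.55 for delta, 0.97 for epsilon, 1.63 for omega, 2.12 for sigma, 2.63 for theta and 2.73 for zeta, where the main values were 2.80, 0.22, 0.91, 1.38, 1.92 and 1.97. In TPM they were 0.31 for epsilon and 2.17 for zeta. GstS1 was 53rd in WT by counts not divided by length. Its share of all counts, mtDNA included, was 0.0840% in WT and 0.366% upon M1BP RNAi. GstD4, GstD6, GstD7, GstD8, GstD11, GstE4, GstE10 and GstE14 had too few counts for the main edgeR test.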
